A study of Homo sapiens with 4 samples.

Results

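The 10 genes described here encode lineage and differentiation factors of stratified epithelium: the grainyhead-like factors GRHL1, GRHL2 and GRHL3, the ETS factors EHF and ELF3, the zinc finger proteins OVOL1 and ZNF750, SOX2, TP63, and MIR205HG, the host transcript of miR-205. All probe sets whose platform annotation gives exactly 1 of these symbols were taken, which gave 21 of 54613 probe sets, for 9 of 19775 annotated genes. TP63 was not analysed here. RNA was measured on 4 Affymetrix 3' expression arrays of KYSE410, an established human line of esophageal squamous cell carcinoma. The arrays were 2 of untreated cells and 2 of cells given 20 nM YM155 for 6 h. This small molecule is an inhibitor of the expression of survivin, an apoptosis inhibitor. The treatment protocol field of the labels names cisplatin instead, while the treatment labels, source names and title name YM155, which is followed here. Each YM155 title also carries a code, B1 or B2, that the labels leave unexplained and that was not used. No label names separate cultures, so the spread between the 2 arrays of a group may be technical.

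In stratified epithelium, basal cells divide on the basement membrane and their daughters differentiate as they move towards the surface. Grainyhead-like factors bind related DNA sequences and control junction, barrier and surface protease genes, GRHL3 being the member best known for its role in epidermal barrier formation. EHF and ELF3 are ETS factors restricted largely to epithelia, OVOL factors repress mesenchymal genes, and ZNF750 promotes terminal differentiation. SOX2 and p63 mark and maintain the squamous lineage of the esophagus, and the miR-205 gene is a squamous epithelial microRNA gene that p63 is known to activate.

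MIR205HG, GRHL3 and EHF had the widest differences among these genes, and their sequences are shown for that reason. The arrays detect the MIR205HG transcript, and mature miR-205 was not measured. The mature microRNAs of the miR-205 hairpin, from RefSeq (GRCh38.p14, plus strand), lie at chr1:209432166-209432187 and chr1:209432203-209432223. The seed, bases 2 to 8, is in capitals. Each seed belonged to 1 mature name among the 2370 in the table.
hsa-miR-205-5p: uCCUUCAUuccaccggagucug
hsa-miR-205-3p: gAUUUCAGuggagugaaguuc

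The 250 bases before annotated starts of these genes follow, from RefSeq on GRCh38.p14, all on the plus strand. They lie at chr1:209428570-209428819 for MIR205HG, chr1:24319107-24319356 and chr1:24322790-24323039 for GRHL3, and chr11:34624007-34624256 for EHF. Capitals mark matches on either strand to CATTGTT, a SOX motif (MIR205HG), or CCACCC, a KLF motif (GRHL3 and EHF). The arrays do not show which start was in use.
MIR205HG: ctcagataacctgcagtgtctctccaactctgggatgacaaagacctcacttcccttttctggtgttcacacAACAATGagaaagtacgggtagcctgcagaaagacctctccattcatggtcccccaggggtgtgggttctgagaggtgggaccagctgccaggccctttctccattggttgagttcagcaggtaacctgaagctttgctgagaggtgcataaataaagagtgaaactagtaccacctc
GRHL3, upstream start: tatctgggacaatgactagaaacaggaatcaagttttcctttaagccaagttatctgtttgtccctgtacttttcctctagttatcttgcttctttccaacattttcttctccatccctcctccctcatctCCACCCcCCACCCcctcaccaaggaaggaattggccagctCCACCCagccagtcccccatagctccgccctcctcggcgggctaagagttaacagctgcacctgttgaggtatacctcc
GRHL3, downstream start: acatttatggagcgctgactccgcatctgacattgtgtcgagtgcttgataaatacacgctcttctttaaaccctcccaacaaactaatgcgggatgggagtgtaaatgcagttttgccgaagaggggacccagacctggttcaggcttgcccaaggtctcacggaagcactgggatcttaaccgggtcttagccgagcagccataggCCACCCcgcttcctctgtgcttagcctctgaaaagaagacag
EHF, upstream start: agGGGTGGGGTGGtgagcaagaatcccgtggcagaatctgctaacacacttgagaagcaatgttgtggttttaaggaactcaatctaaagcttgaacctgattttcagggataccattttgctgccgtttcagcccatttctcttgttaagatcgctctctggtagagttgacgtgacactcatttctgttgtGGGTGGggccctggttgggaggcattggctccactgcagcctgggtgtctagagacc

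RefSeq windows were at hand for 6 of the 9 genes, 8 windows in all, and 9 motifs were searched on both strands. The SOX letters CATTGTT occurred in the MIR205HG window, beginning 178 bases before the start, and in 2.87% of all 35116 windows. The KLF letters CCACCC occurred in both GRHL3 windows and in the upstream EHF window, and in 31.3% of all windows; the first pair of EHF matches overlap by their end bases. The window of the downstream EHF start held none of the 9 motifs and is not printed. The ZNF750 letters CCNNNAGGC were found in the GRHL1 window (23.7% of all windows) and the TATA letters TATAAA in the ELF3 window (10.7%). The GRHL letters AACCNGGTT (0.202% of all windows), the ETS letters CCGGAAGT (3.42%), the OVOL letters CCGTTA (2.45%), the AP-1 letters TGANTCA (6.57%) and the TEAD letters GGAATG (11.9%) were in none of the 8 windows. Such matches describe letters and do not show binding.

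The array values were log2 intensities, and probe sets with a mean under the 40th percentile, 3.32 log2, were called dim and left out of the fit, which kept 32768. Differences are YM155 minus untreated with the standard error (SE) of limma. Intensities of different probe sets are not comparable as amounts of RNA. The untreated arrays were at least 2-fold apart at 1690 probe sets and the YM155 arrays at 56. Untreated replicate 1 was that far from YM155 replicates 1 and 2 at 739 and 850 probe sets, and untreated replicate 2 at 1811 and 2140. Untreated replicate 1 thus lay nearer to both YM155 arrays than to the other untreated array by this count. The log2 ratio of 3' to 5' ACTB control signal was 2.72 and 2.18 in the untreated arrays against 2.10 and 2.95 in the YM155 arrays. For GAPDH it was 0.042 and 0.043 against 0.033 and 0.21, so YM155 replicate 2 was highest on both controls. Of 12 squamous markers listed, 8 had a probe set naming that gene alone. All 8 passed the filter, led by S100A2 and SFN at 12.8 log2 each. Their summed level, to which the brightest contribute most, was 14.2 and 14.5 log2 in the untreated arrays against 14.7 in both YM155 arrays. It was thus higher after YM155, and its part in the results was not tested. In bulk RNA, fewer cells of a type and less RNA per cell cannot be told apart. Of markers of other cells, 4 of 8 fibroblast, 2 of 6 leukocyte, 3 of 6 endothelial and 5 of 8 glandular genes passed the filter. The brightest of each were COL1A1 (6.16) and THY1 (4.91), CD3D (4.24) and CD3E (3.75), CLDN5 (5.19) and PECAM1 (4.29), and MUC6 (5.54) and AGR2 (5.44). LUM (2.35), PTPRC (2.09), KDR (2.01) and TFF1 (2.63) stood lowest. The summed level ranged from 7.30 to 7.42 in untreated and 7.27 to 7.42 in YM155 arrays for fibroblast, 5.75 to 5.88 and 5.87 to 5.92 for leukocyte, 6.43 to 6.57 and 6.49 to 6.53 for endothelial, and 7.19 to 7.65 and 7.34 to 7.47 for glandular markers.

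Of the 21 probe sets of the lineage factors, 16 passed the filter, for 8 genes; the 5 dim ones were 3 of EHF, 1 of SOX2 and that of ZNF750. Both YM155 arrays lay above both untreated arrays at 3 of the 16 and below them at 5, while over all probe sets tested these shares were 19.4% and 23.9%. No probe set passed limma's adjusted p of 0.05, neither among the 16 nor among all 32768 (0.00% higher and 0.00% lower). At an unadjusted p under 0.05, limma counted 1647 probe sets higher (5.03%) and 1986 lower (6.06%), 1 and 4 of them among the 16. At least 2-fold and without overlap, 1 of the 16 stood higher and 3 lower, where 1.02% and 1.07% of all probe sets did. The genes were selected on their role and on their YM155 minus untreated differences, already known from these arrays, so those differences are a description and carry no test.

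**Figure D1:**
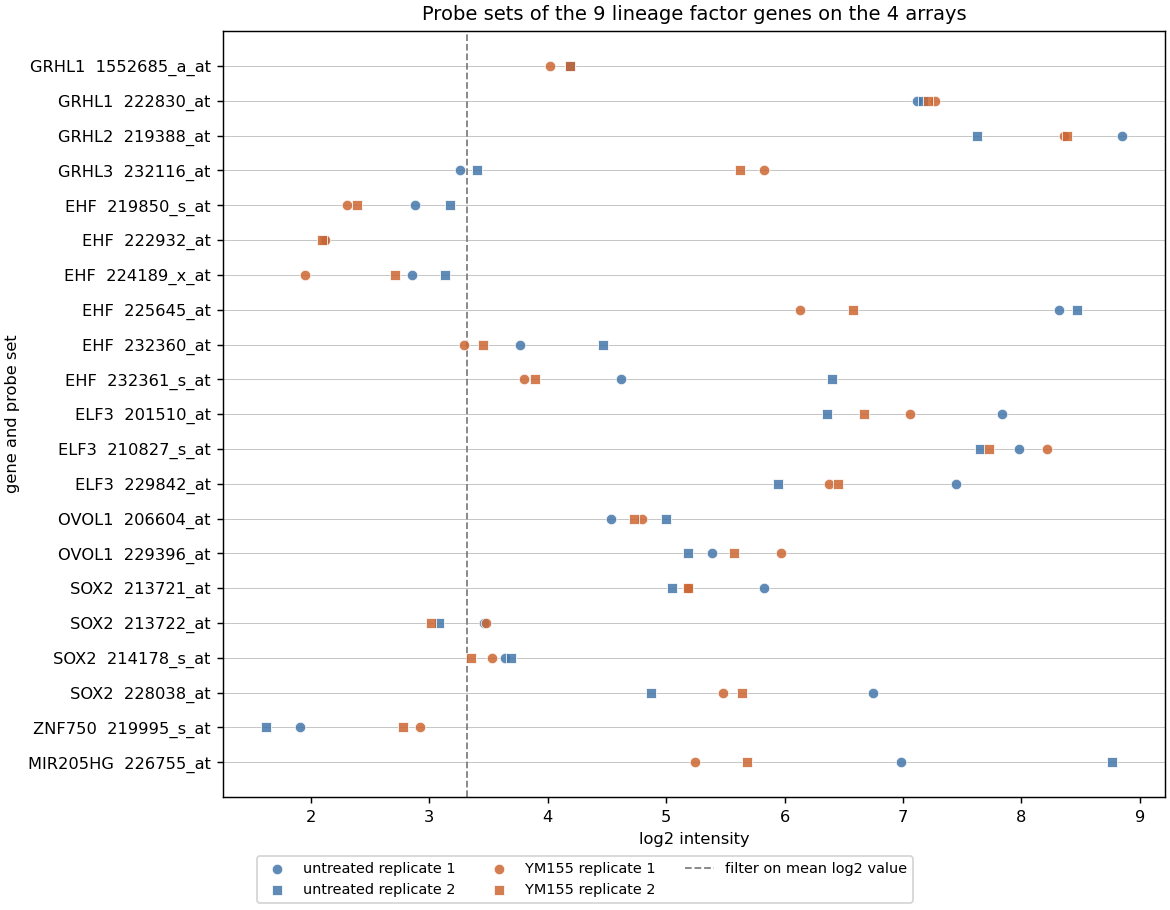
Log2 intensity of all 21 probe sets of the 9 genes on the 4 arrays, 1 row per probe set; blue marks untreated and orange YM155 arrays, circles replicate 1 and squares replicate 2, and the dashed line the filter at 3.32 log2. GRHL3 stands to the right after YM155, EHF 225645_at and MIR205HG to the left, and the untreated arrays are farthest apart on SOX2 228038_at.

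The GRHL family differed by member. GRHL3, on probe set 232116_at, read 3.26 and 3.40 log2 in untreated replicates 1 and 2 and 5.82 and 5.62 in YM155 replicates 1 and 2. Both YM155 arrays were far above both untreated ones, and the replicates of each group lay close together. The means were 3.33 ± 0.10 (SD, n = 2) and 5.72 ± 0.14 (SD, n = 2), a difference of 2.39 ± 0.15 log2 (SE). With a pseudocount of 16 added to the intensities it was 1.40. Against untreated replicate 1 alone it was 2.47 and against replicate 2 alone 2.32. The untreated values lie at the filter limit, where signal is not shown to exceed background, so the size of the difference is not exact.

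GRHL2, a regulator of E-cadherin and claudin genes, read 8.85 and 7.63 log2 in the untreated arrays against 8.36 and 8.38 in the YM155 arrays. The YM155 arrays sat between the untreated ones, and the difference of 0.13 ± 0.42 (SE) had a 95% interval from −0.97 to 1.24. Its sign turned with the reference, at −0.48 from untreated replicate 1 and 0.75 from replicate 2. GRHL1, a regulator of desmosomal cadherin genes, read 7.12 and 7.17 in the untreated arrays against 7.27 and 7.21 in the YM155 arrays on probe set 222830_at. These arrays did not overlap, but the difference was 0.093 ± 0.13 (95% interval −0.25 to 0.44). Its other probe set, 1552685_a_at, held 4.19 in both untreated arrays and in YM155 replicate 2, and 4.02 in YM155 replicate 1. Values exactly equal, to every deposited digit, on both untreated arrays occurred at 184 of the tested probe sets, and on both YM155 arrays at 291.

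EHF stood lower after YM155 in its brighter probe sets. On 225645_at it read 8.32 and 8.47 log2 in the untreated arrays against 6.13 and 6.58 in the YM155 arrays, without overlap. The means were 8.40 ± 0.11 (SD, n = 2) and 6.36 ± 0.32 (SD, n = 2), and the difference was −2.04 ± 0.20 (SE), or 4.11-fold, with rank 14 from the lowest. It changed little with the reference, at −1.96 from untreated replicate 1 and −2.12 from replicate 2.

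On the other EHF probe sets the untreated arrays parted more. Probe set 232361_s_at read 4.62 and 6.40 log2 in the untreated arrays against 3.80 and 3.89 in the YM155 arrays, a difference of −1.67 ± 0.60 that was −0.78 from untreated replicate 1, −2.56 from replicate 2 and −1.07 with a pseudocount of 16. Probe set 232360_at read 3.77 and 4.46 in the untreated arrays against 3.29 and 3.45 in the YM155 arrays, a difference of −0.75 ± 0.27. It was −0.40 from untreated replicate 1, −1.09 from replicate 2 and −0.35 with a pseudocount of 16, and YM155 replicate 1 lay under the filter limit. The 3 dim EHF probe sets lay between 1.95 and 3.17 on all arrays, with differences of −0.68, −0.66 and −0.0021. In all, 5 of the 6 EHF probe sets, dim ones among them, had both YM155 arrays below both untreated arrays. Without a filter, 11222 of all 54613 probe sets did. Probe sets of 1 gene on the same 4 arrays are not independent of each other.

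ELF3, the second epithelial ETS factor of the set, gave no common direction. Its probe set 201510_at read 7.84 and 6.35 log2 in the untreated arrays against 7.06 and 6.67 in the YM155 arrays. Probe set 229842_at read 7.45 and 5.95 in the untreated arrays against 6.37 and 6.45 in the YM155 arrays. In both, untreated replicate 1 was highest and replicate 2 lowest, with the YM155 arrays between them. Probe set 210827_s_at read 7.98 and 7.65 in the untreated arrays against 8.22 and 7.73 in the YM155 arrays, and the groups overlapped as well. The 3 differences were −0.23 ± 0.52, −0.29 ± 0.51 and 0.16 ± 0.23 (SE), and the 95% intervals together reached from −1.62 to 1.12. Signs turned with the untreated array for all 3: the difference was −0.97, −1.04 and −0.0086 from replicate 1, and 0.51, 0.46 and 0.32 from replicate 2.

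OVOL1, a zinc finger repressor active in differentiating epidermis, read 5.39 and 5.18 log2 in the untreated arrays against 5.97 and 5.57 in the YM155 arrays on probe set 229396_at. Both YM155 arrays were higher, by 0.48 ± 0.20 (SE; 95% interval −0.03 to 1.0). Its second probe set, 206604_at, read 4.54 and 5.0 in the untreated arrays against 4.79 and 4.73 in the YM155 arrays, with the YM155 arrays between the untreated ones and a difference of −0.0053 ± 0.20.

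SOX2, a factor of the foregut and basal squamous lineage, read 6.74 and 4.87 log2 in the untreated arrays against 5.48 and 5.64 in the YM155 arrays on probe set 228038_at. The YM155 arrays lay between untreated replicates 1.87 log2 apart, the widest gap among the 16 probe sets. On 213721_at it read 5.83 and 5.05 in the untreated arrays against 5.18 in both YM155 arrays. On 214178_s_at it read 3.64 and 3.69 in the untreated arrays against 3.53 and 3.35 in the YM155 arrays, without overlap but close to the filter limit. The 3 differences were −0.25 ± 0.63, −0.26 ± 0.28 and −0.22 ± 0.14 (SE), and the dim probe set gave −0.031. With a pseudocount of 16, 214178_s_at was at −0.094. The first 2 turned to 0.68 and 0.13 against untreated replicate 2.

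ZNF750, a differentiation factor, had a single probe set, 219995_s_at, which was dim on all arrays. It read 1.90 and 1.62 log2 in the untreated arrays against 2.92 and 2.77 in the YM155 arrays. The YM155 arrays were higher without overlap, by 1.09, but every value lay under the filter limit, so no level of ZNF750 transcript is shown by it.

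MIR205HG had the most negative difference of the set. Its probe set 226755_at read 6.98 and 8.76 log2 in untreated replicates 1 and 2 and 5.24 and 5.68 in YM155 replicates 1 and 2. Both YM155 arrays were below both untreated ones, which were themselves 1.78 apart. The means were 7.87 ± 1.26 (SD, n = 2) and 5.46 ± 0.31 (SD, n = 2), a difference of −2.41 ± 0.61 (SE; 95% interval −4.02 to −0.80), with rank 4 from the lowest. The size rested on the untreated array used: −1.52 from replicate 1 and −3.30 from replicate 2.

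**Figure D2:**
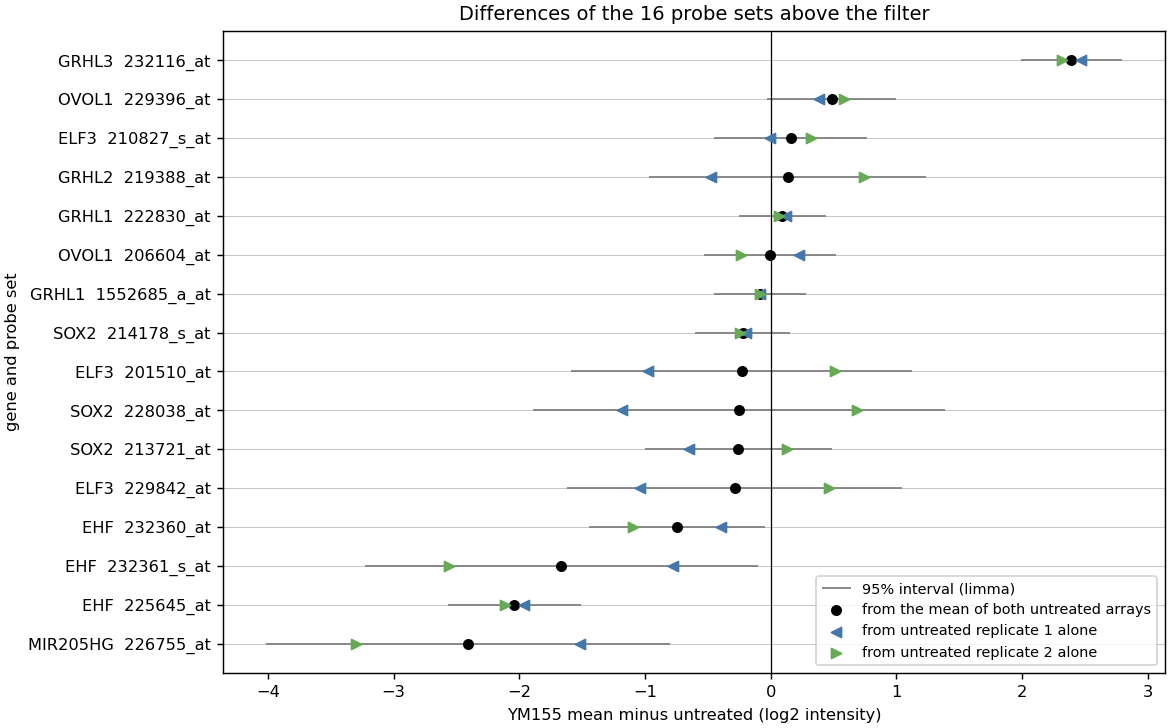
YM155 minus untreated in log2 intensity for the 16 probe sets above the filter, from the mean of both untreated arrays (black, with limma's 95% interval) and from each untreated array alone (coloured triangles). The triangles of GRHL3 and EHF 225645_at nearly coincide, and those of MIR205HG lie at −1.52 and −3.30. Those of ELF3, GRHL2, OVOL1 206604_at and 2 SOX2 probe sets lie on both sides of 0.

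The untreated arrays were at least 1 log2 apart at 6 of the 16 probe sets, and at 1690 of all 32768 tested. The YM155 arrays differed by at most 0.49 at the 16, and were at least 1 log2 apart at 56 of all 32768. At 7 of the 16 the sign of the difference depended on which untreated array served as reference, a count not made over all probe sets. Without untreated replicate 1, both YM155 arrays lay above the remaining untreated array at 9 and below it at 6 of the 16 (39.8% and 41.2% of all probe sets). Without untreated replicate 2 these counts were 4 and 10 (33.8% and 42.8%). GRHL3, MIR205HG, OVOL1 229396_at, SOX2 214178_s_at, both GRHL1 and the 3 EHF probe sets kept their sign against each untreated array.

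Among the genes tested, those whose centred values on the 4 arrays lay nearest to GRHL3 by root mean square difference were CITED2, a transcriptional coregulator (0.12 log2), EFNB2, an ephrin ligand (0.33), and DUSP1, a MAP kinase phosphatase (0.36). Nearest to EHF 225645_at were ATXN1-AS1, an antisense transcript (0.17), VLDLR, a lipoprotein receptor gene (0.24), and EID2B (0.26). Nearest to MIR205HG were DBP, a clock-controlled factor (0.27), LOC101928505 (0.32) and YPEL2 (0.35). DBP read 5.68 and 6.86 log2 in the untreated arrays against 3.92 and 3.90 in the YM155 arrays, so untreated replicate 2 was its highest array, as for MIR205HG. With 4 arrays, likeness mostly restates the difference between groups and the gap between the untreated arrays.

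Lists of relatives, other factors and known targets were counted with 1 probe set per gene, the one of highest mean. No listed gene passed the adjusted threshold in either direction, and the lowest adjusted p in these lists was 0.228 in limma's fit over all probe sets. Over all 14043 genes, both YM155 arrays lay above both untreated arrays for 19.3% and below them for 25.6%, and the median difference was −0.015. Several genes are in more than 1 list, among them OVOL2, ERBB3, KLF4, SNAI2, ZEB1 and TGM1.

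Relatives of the factors went both ways. Of 17 tested, 6 had both YM155 arrays above and 8 below both untreated arrays, and the median difference was −0.12. OVOL2, the paralog of OVOL1 and a repressor of mesenchymal genes, read 7.65 and 7.51 log2 in the untreated arrays against 6.09 and 6.43 in the YM155 arrays. Its YM155 arrays were more than 1 log2 below the untreated ones, at a difference of −1.32 ± 0.18 (SE), while OVOL1 gave 0.48 and −0.0053. SOX9, a factor of progenitor and glandular cells, stood higher, with 7.43 and 8.14 in the untreated arrays against 9.08 and 9.02 in the YM155 arrays. SOX7 stood lower by −0.78 ± 0.15, and ETS1, the widely expressed ETS factor, higher by 0.93 ± 0.24. UBP1, a grainyhead-related factor, was at 0.74 ± 0.28. Neither ETS1 nor SOX9 overlapped between groups, and all their probe sets above the filter were positive.

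Of 28 other factors of stratified epithelium, 6 lay above and 5 below without overlap, with a median difference of 0.054. HES1, a Notch target and repressor, read 8.47 and 8.97 log2 in the untreated arrays against 10.3 and 9.88 in the YM155 arrays, at 1.38 ± 0.25 (SE). BNC1, a basal keratinocyte zinc finger factor, was at 1.07 ± 0.24, KLF4, a factor of barrier formation, at 0.82 ± 0.14, and GATA3 at 0.74 ± 0.25. KLF4 read 8.96 and 9.02 in the untreated arrays against 9.86 and 9.75 in the YM155 arrays, and its other probe set gave 0.36. CEBPB, which had the highest signal in this list, was lower by −0.88 ± 0.26. TFAP2A (−0.21) and KLF5 (0.19) differed little.

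Known GRHL targets had no common direction, and a link to the GRHL3 signal was not tested. Of 25 such targets, 8 lay above and 11 below without overlap, with a median of −0.11. Their median was −0.054 from untreated replicate 1 and −0.19 from replicate 2. The tight junction gene CLDN4 read 7.74 and 9.15 log2 in the untreated arrays against 9.66 and 9.47 in the YM155 arrays, and its difference of 1.12 ± 0.48 (SE) was 1.82 from untreated replicate 1 and 0.42 from replicate 2. CD24 was at 1.03 ± 0.29 on the probe set used and from 0.11 to 0.94 on its 5 others. On the low side stood OVOL2, ERBB3 (−0.97 ± 0.15) and the serine protease gene TMPRSS11E (−1.23 ± 0.63), the last at −0.28 from untreated replicate 1 and −2.17 from replicate 2. TMPRSS11E read 3.77 and 5.66 in the untreated arrays against 3.53 and 3.44 in the YM155 arrays. All but untreated replicate 2 were close to the filter limit. The surface protease gene PRSS8 was at −0.93 ± 0.31, or −0.50 from untreated replicate 1 and −1.35 from replicate 2. ST14, which encodes its partner matriptase, was at 0.85 ± 0.20, or 1.08 and 0.61 in turn. The E-cadherin gene CDH1 (0.21), the epidermal transglutaminase gene TGM1 (0.13) and KRT8 (−0.011), of highest signal in the list, stood near 0.

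Of 29 targets of p63, 12 lay above and 4 below without overlap (41.4% and 13.8%), and the median difference was 0.060. The list does not separate genes that p63 raises from genes that it lowers. The basal keratin genes KRT5 (0.39 ± 0.14 SE) and KRT14 (0.49 ± 0.24), the desmosomal cadherin genes DSG3 (0.61 ± 0.30) and DSC3 (0.51 ± 0.26) and SFN (0.68 ± 0.21) were higher in both YM155 arrays. From untreated replicates 1 and 2 in turn, DSG3 was at 0.20 and 1.02, DSC3 at 0.18 and 0.84, KRT14 at 0.79 and 0.18, and SFN at 0.92 and 0.43. A second DSC3 probe set, at 0.29, overlapped between groups. IGFBP3 had the largest difference, 1.39 ± 0.80, but was at 2.61 from untreated replicate 1 and 0.18 from replicate 2. Next came SNAI2, at 1.26 ± 0.17. FGFR3 (−0.56 ± 0.16), JAG2 (−0.43) and ITGB4 (−0.41) stood lower, and S100A2, of highest signal, was at 0.26 ± 0.26. Against untreated replicate 2 alone 18 of the 29 lay above and 10 below, and against replicate 1 alone 17 and 10, where the shares of all genes were 42.3% and 40.1%, and 31.6% and 47.4%. KRT5, KRT14, DSG3, DSC3, SFN and S100A2 are also among the squamous markers whose summed level is given above.

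Of 34 targets of ZNF750 and other genes of terminal differentiation, 12 lay above and 2 below without overlap (35.3% and 5.88%). The difference was positive for 26 of the 34, where it was for 6612 of all 14043 genes, and the list's median was 0.13. The leading genes were SPRR3 (1.30 ± 0.36 SE), SPRR1B (1.20 ± 0.43), EMP1 (0.89 ± 0.29), KLF4 and SPRR2B (0.80 ± 0.36). SPRR3 read 3.89 and 4.63 log2 in the untreated arrays against 5.20 and 5.92 in the YM155 arrays. Its value in untreated replicate 1 was close to the filter limit. SPRR1B, a cornified envelope precursor gene, read 6.41 and 7.47 log2 in the untreated arrays against 7.80 and 8.46 in the YM155 arrays. From untreated replicates 1 and 2 in turn, SPRR1B was at 1.72 and 0.67, SPRR3 at 1.67 and 0.93, and EMP1 at 1.26 and 0.51. The YM155 arrays of SPRR2B were 1.01 log2 apart, at 4.86 and 5.87. SPRR3 gave 0.20 on its other probe set, and the 4 other EMP1 probe sets ranged from −0.083 to 0.99. TGM1 (0.13), ANXA1 (0.035), of highest signal, and KRT4 (−0.013) hardly differed, while SCEL (−0.44) and CNFN (−0.32) stood lower. Without untreated replicate 1, 21 of the 34 lay above and 6 below the remaining untreated array (42.3% and 40.1% of all genes). Without untreated replicate 2 it was 17 and 8 (31.6% and 47.4%).

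**Figure D3:**
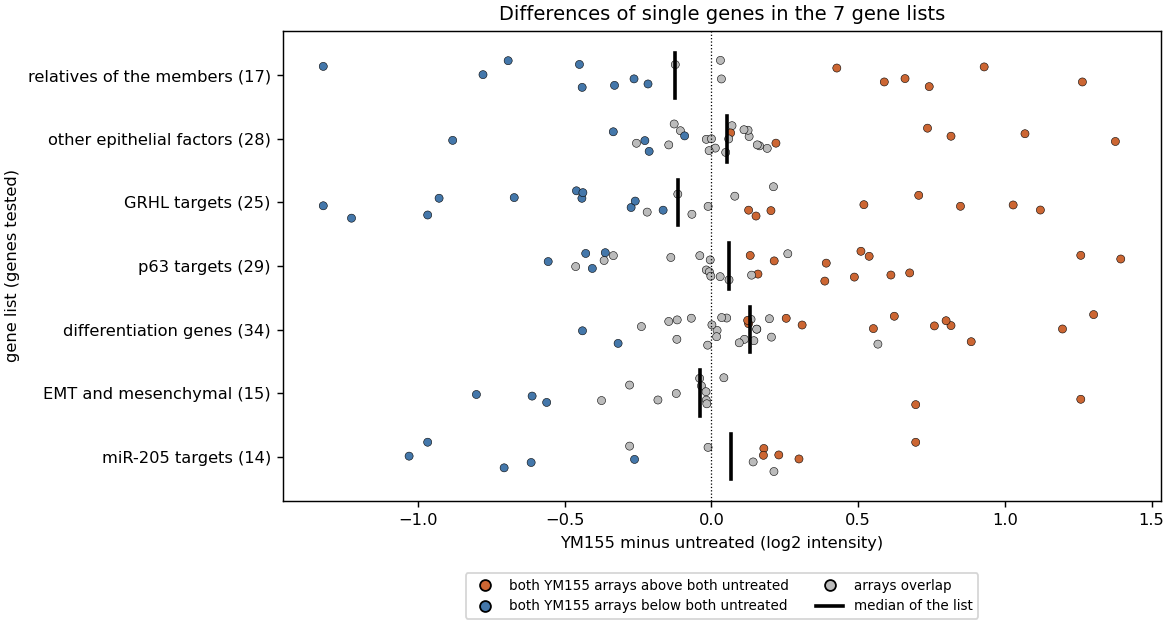
YM155 minus untreated in log2 intensity for each gene tested in the 7 lists, 1 point per gene with a small vertical jitter; orange and blue mark genes whose groups did not overlap, grey those that did, and black bars the list medians. Medians lie between −0.12 and 0.13, and each list holds genes on both sides of 0.

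Genes of epithelial to mesenchymal transition, which OVOL and GRHL factors are known to restrain, gave 2 above and 3 below without overlap among 15, with a median of −0.040. SNAI2, a zinc finger repressor that basal keratinocytes also express, read 9.13 and 8.80 log2 in the untreated arrays against 10.2 in both YM155 arrays. Both YM155 arrays were more than 1 log2 above the untreated ones, at 1.26 ± 0.17 (SE). ZEB1, a repressor of epithelial genes, read 3.52 and 3.81 in the untreated arrays against 4.19 and 4.53 in the YM155 arrays, higher but close to the filter limit. TWIST1 (−0.80 ± 0.32), TGFB2 (−0.61 ± 0.13) and MMP2 (−0.56 ± 0.30) stood lower. From untreated replicates 1 and 2 in turn, TWIST1 was at −0.41 and −1.19 and MMP2 at −0.14 and −0.98. VIM (−0.28), CDH2 (−0.034) and FN1 (−0.019) overlapped between groups. The list's median changed sign with the reference, 0.059 from untreated replicate 1 and −0.33 from replicate 2.

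Reported targets of miR-205 had no common direction, and a link to the MIR205HG signal was not tested. Of 14 tested, 5 lay above and 5 below without overlap, with a median of 0.065, which was −0.097 from untreated replicate 1 and 0.030 from replicate 2. ERBB3, a receptor tyrosine kinase gene, read 8.78 and 8.71 log2 in the untreated arrays against 7.90 and 7.67 in the YM155 arrays, without overlap and at −0.97 ± 0.15 (SE). A second ERBB3 probe set gave −1.01, and 2 weaker ones −0.028 and 0.13. BCL6 (−1.03 ± 0.20), VEGFA (−0.71 ± 0.34) and INPPL1 (−0.61 ± 0.20) stood lower too, and ZEB1 higher by 0.70 ± 0.19. VEGFA was at −1.19 from untreated replicate 1 and −0.22 from replicate 2, and YES1, of highest signal, was at 0.23 ± 0.17.

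**Figure D4:**
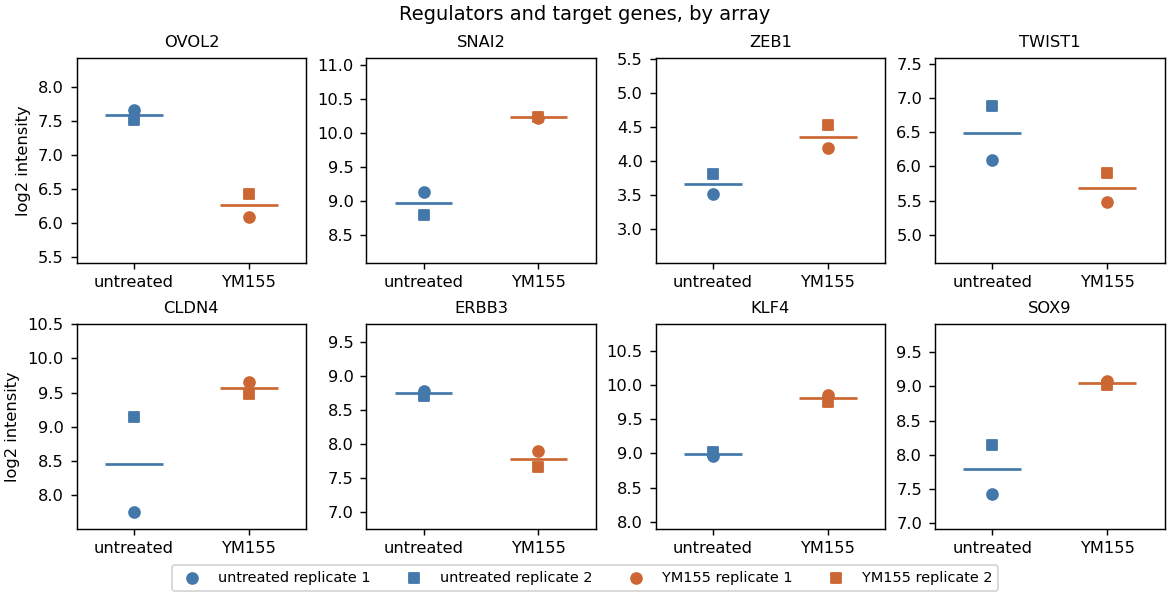
Log2 intensity of 8 regulators and target genes on the 4 arrays; bars are group means, circles replicate 1 and squares replicate 2, and every panel spans 3 log2. OVOL2, ERBB3 and TWIST1 sit lower and SNAI2, ZEB1, CLDN4, KLF4 and SOX9 higher in both YM155 arrays, with the untreated arrays 1.40 log2 apart for CLDN4.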

How the data were processed

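Each array's file column, as the authors deposited it, holds an intensity for every probe set from RMA, per the submitters' processing notes; its version, its settings and a genome build were not given in the sources used here. The deposited intensity values ran from 2.42 to 15214, a linear scale, so log2 was taken. RMA sets arrays to a common distribution, so a shift shared by all genes is not measured. Of 54675 probe sets, 62 controls were left out; 41091 had 1 gene symbol in the platform annotation, 1801 several and 11721 none, and the last 2 kinds named no gene. Probe sets with a mean log2 value under the 40th percentile were not tested.

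YM155 was compared with untreated with limma 3.58.1 under R 4.3.3 (lmFit, then eBayes; two-sided; only the group as a term; Benjamini-Hochberg over 32768 probe sets, threshold 0.05), after a check on simulated data. With 2 arrays per group, their number limits the precision. The genes and lists were chosen with earlier results of these data known. Named from each list were the 5 genes of largest absolute difference and the brightest; the 3 nearest genes to GRHL3, EHF and MIR205HG; and 2 markers per other cell type. Other listed genes were named after their values were seen: PRSS8, ST14, CDH1, TGM1, VIM, CDH2, FN1, JAG2, ITGB4, KRT5, KRT14, DSC3, SCEL, CNFN, KRT4, TFAP2A and KLF5.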

Additional observations from a re-analysis of the deposited data

How the results depend on the processing

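With 2 arrays per group and no detection calls, small differences and signals near the filter limit are not resolved. The count of probe sets past the adjusted threshold, 0 higher and 0 lower, was 0 under every alternative run: no filter, a filter at the 60th percentile, 1 probe set per gene, probe sets without suffixes, quantile normalization, median centring, a pseudocount of 16, eBayes with trend and robust, and each array left out (0 to 0). The replicate block gave 0 as well, with a lowest adjusted p of 0.568 in limma; the correlation of same-numbered arrays' deviations was −0.033, so the numbers are not shown to pair the arrays. The lowest adjusted p was 0.223 in the fit reported, 0.0633 and 0.181 without untreated replicate 1 or 2, and 0.938 and 1 without YM155 replicate 1 or 2; in these fits the lone array of a group is assumed to vary like the other group's pair. With all 4 arrays, the lineage factor probe sets that each setting could give kept their sign (10 of the 16 at the 60th percentile, 8 with 1 probe set per gene, 12 without suffixes, otherwise 16), except for OVOL1 206604_at, near 0, under quantile normalization and median centring. With a pseudocount of 16, GRHL3, EHF 232360_at and SOX2 214178_s_at moved by more than their replicate SD, to 1.40, −0.35 and −0.094. GRHL1 222830_at did so under quantile normalization, from 0.093 to 0.14. Under quantile normalization 1847 probe sets were higher and 1747 lower at an unadjusted p under 0.05, and 7176 and 7228 lay above and below without overlap, where 6349 and 7843 did in the fit reported. At least 2-fold and without overlap, 158 stood higher and 156 lower with a pseudocount of 16, where 333 and 349 did in the fit reported. With an array left out, 422 to 4437 were higher and 448 to 4447 lower at an unadjusted p under 0.05, the most without untreated replicate 1. Leaving out untreated replicate 1 turned 4 signs, untreated replicate 2 turned 3, and either YM155 array 1. Counts without 1 untreated array were added after seeing the data.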
